A study of Mus musculus with 9 samples.

Results

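The proteasome subunit genes of mouse spinal motoneurons were described across 3 conditions: synergistic bidirectional electrical stimulation (SBES) after spinal cord injury, injury without training, and sham. Members were taken by name, as every gene of the deposited table whose symbol begins with Psm, continues with a letter from a to g and ends in a number with or without a or b. This gave 49 genes of 55401 in the table, of which 47 had enough counts to be among the 15893 genes tested. Psma8, a testis form of an alpha subunit, had 2 to 16 counts per library, and Psmb11, a beta subunit of thymus epithelium, had 0 to 3, so neither was tested. The members were sorted by role into 8 alpha and 8 beta subunits of the core, 9 subunits of the base and 8 of the lid of the regulatory particle, 4 chaperones of core assembly and 3 of base assembly. The remaining members were 3 activators or inhibitors, the 5 genes of the immunoproteasome (Psmb8, Psmb9, Psmb10, Psme1 and Psme2), and Psme2b, a near copy of Psme2.

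All animals were labelled wild type, and no transgene is named. The SBES group had the injury and the stimulation, at 10, 15 and 20 Hz in libraries 1, 2 and 3, so each frequency had 1 library and frequencies were not compared. The untrained group carried the injury alone, and the sham group is the study's control. Motoneurons carrying the fluorescent label TRDA were aspirated from cord slices 4 weeks after injury and sequenced with Smart-seq2, which copies whole transcripts from very little RNA. Each group had 3 libraries. The labels name 3 mice per group without tying a library to a mouse, and do not give the number of neurons per library, so p-values measure the spread between these libraries, which may be technical.

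The proteasome degrades proteins that carry ubiquitin chains. Its core is a barrel of alpha rings, which gate the entrance, and beta rings, which hold the proteolytic sites. The regulatory particle caps the barrel, where its lid removes ubiquitin and its base of ATPases unfolds the substrate. In immune cells, and in other cells under interferon gamma, Psmb8, Psmb9 and Psmb10 take the places of the catalytic subunits Psmb5, Psmb6 and Psmb7, and this immunoproteasome is known for producing peptides presented by MHC class I. Motoneurons depend on proteasomal turnover in long axons, and transcription of most subunit genes is known to be driven together by Nfe2l1 when proteasome activity falls short.

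Total counts ran from 11821145 in SBES library 1 to 17675948 in sham library 3, and the 49 members took 0.677% to 1.23% of them. Motor neuron markers were detected in every library, 8 of 8, with Chat, the enzyme that makes acetylcholine, at 4.17 to 7.35 FPKM. Markers of other cells were high: the 10 oligodendrocyte genes summed to 5060 to 14220 FPKM, with the myelin gene Mbp at 3824 to 11133 FPKM, against 132 to 636 FPKM for the 8 motor neuron genes. In such libraries fewer cells of a type and less RNA per cell cannot be told apart. The replicate 1 libraries stood apart from replicates 2 and 3. SBES library 1 had 18.6% of its counts from mitochondrial genes and sham library 1 had 7.36%, against 2.47% to 6.27% elsewhere. The nuclear RNA Malat1 was at 4774, 16069 and 15128 CPM in SBES, untrained and sham library 1, against 514 to 1617 CPM in the other 6 libraries.

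Promoters of both kinds are shown to set a constitutive beside an inducible catalytic subunit. The motif TGACNNNGC, the core of the antioxidant response element bound by Nfe2l1 and Nfe2l2, was searched on both strands in windows of 250 bases before to 50 after each RefSeq start (GRCm38.p6), which were given for 41 of the 49 members. It was present in 6 of the 44 windows of members (Psmb5, Psmb6, Psmc6, Psmd9, Psmd12 and Psme4), against 12.4% of all 32851 windows. The constitutive genes shown, Psmb5 and Psmb6, are thus among the few members with the motif. No window was given for Psmb7. The 250 bases before the start are given 5′ to 3′ for the beta subunits with the chymotrypsin-like site (Psmb5, chr14:54617996-54618245, minus strand) and the caspase-like site (Psmb6, chr11:70525107-70525356, plus strand). They are followed by those of Psmb8 (chr17:34197945-34198194, plus strand), the inducible subunit that replaces Psmb5. Capitals mark the motif, which begins 47 bases before the Psmb5 start and 9 before the Psmb6 start and is not among the letters of the Psmb8 window. That window lies inside the span of Psmb8 in the deposited table, which starts at 34197721, so the bases before that start were not searched.
Psmb5: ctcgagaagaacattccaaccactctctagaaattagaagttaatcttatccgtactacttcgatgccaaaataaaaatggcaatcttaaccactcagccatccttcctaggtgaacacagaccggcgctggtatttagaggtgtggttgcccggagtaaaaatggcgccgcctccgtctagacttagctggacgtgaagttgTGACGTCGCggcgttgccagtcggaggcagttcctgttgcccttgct
Psmb6: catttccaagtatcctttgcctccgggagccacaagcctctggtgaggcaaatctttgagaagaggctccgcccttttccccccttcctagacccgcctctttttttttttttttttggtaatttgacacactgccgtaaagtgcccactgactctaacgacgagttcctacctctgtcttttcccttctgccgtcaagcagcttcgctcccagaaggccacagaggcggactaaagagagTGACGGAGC
Psmb8: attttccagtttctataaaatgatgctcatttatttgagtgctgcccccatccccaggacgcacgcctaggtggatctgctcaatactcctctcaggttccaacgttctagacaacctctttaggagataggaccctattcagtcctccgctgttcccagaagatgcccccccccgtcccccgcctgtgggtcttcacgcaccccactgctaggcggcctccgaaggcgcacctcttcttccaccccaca
Other letters were searched in the same windows and on both strands. The CCAAT box, written CCAAT, was found in 14 of 41 members against 37.4% of all windows. The core of the interferon-stimulated response element, GAAA and GAAA with any 2 bases between, was found in 5 of 41 (Psmb3, Psmd4, Psmd9, Psme1 and Psmg4) against 3.44% of all windows. An NF-kappaB form, GGGA and CC with any 4 bases between, was found in 10 of 41 against 20.7%. The last 3 searches may overlap one another, and a match is a description of the letters, not of binding. Psmb5 (mm10, chr14:54614119-54618022, minus strand), Psmb6 (chr11:70525367-70527858, plus) and Psmb7 (chr2:38588036-38644087, minus) lie on separate chromosomes. Psmb8 (chr17:34197721-34201454, plus) and Psmb9 (chr17:34181987-34187764, minus) are neighbours, and Psmb10 (chr8:105935735-105938444, minus) is not. Psme1 (chr14:55578123-55581529, plus) and Psme2 (chr14:55587441-55591113, minus), whose products form one activator ring, are neighbours as well.

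Proteasome genes were abundant and steady across the 9 libraries. Levels are given as FPKM, counts per kilobase of exonic length scaled to a fixed library total, here with totals adjusted by TMM so that libraries can be compared. The median member had a mean of 45.2 FPKM, against 2.16 FPKM for the median of all genes tested, and 42 of the 47 members tested reached 10 FPKM and 14 reached 100. The coefficient of variation over the 9 libraries had a median of 14.1% over members, against 21.4% over the 3573 tested genes with at least 10 FPKM. The order of the members by level was nearly the same in every library, with Spearman's rho across the 47 genes of 0.97 to 0.99 over the 36 pairs of libraries, which share gene lengths and the method.

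**Figure D1:**
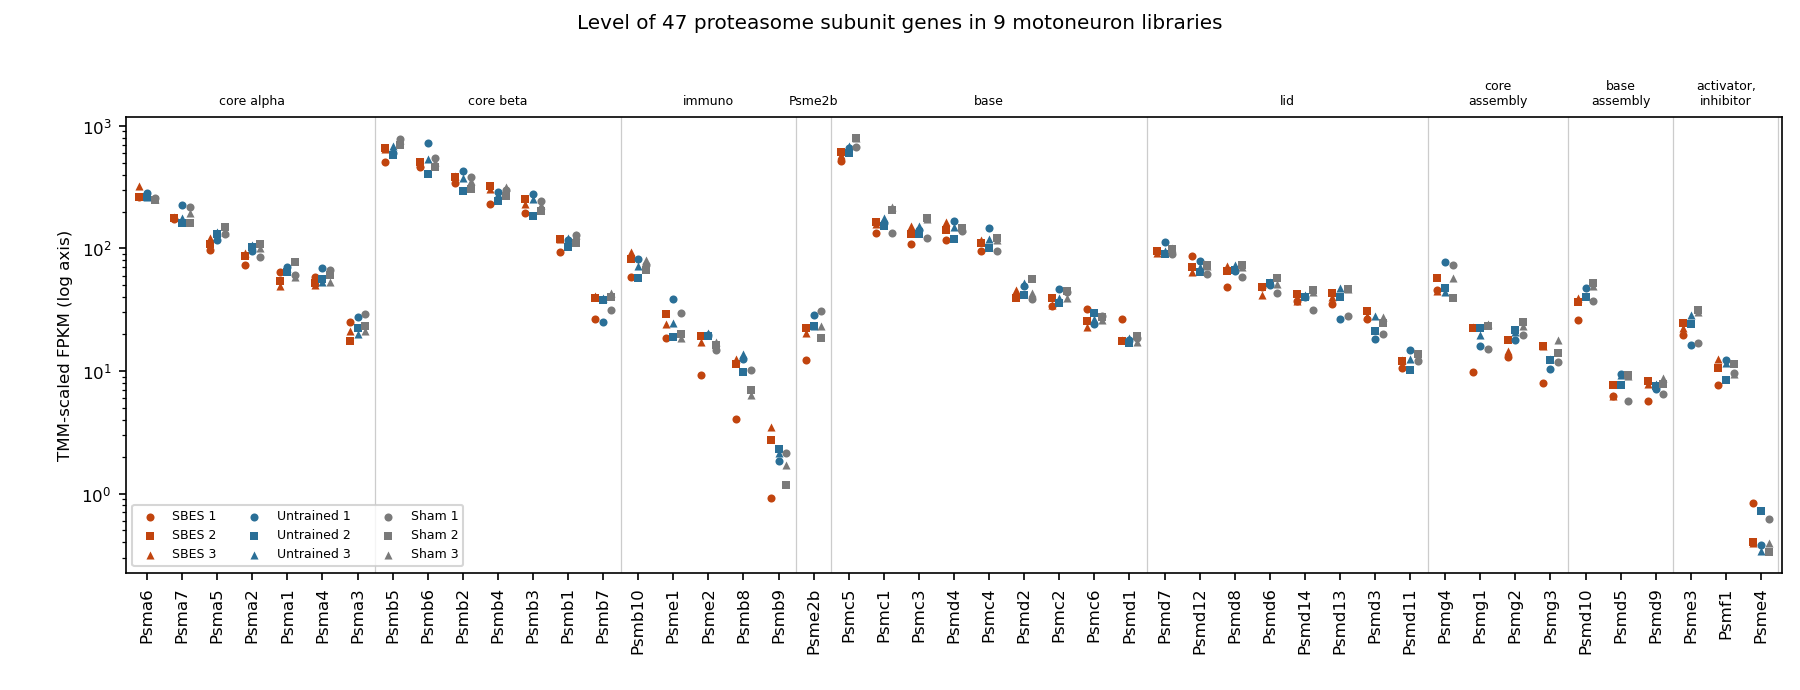
FPKM scaled by TMM (log axis) of the members tested, by role, with 1 point per library and groups in colour. Members differ by orders of magnitude, while the 9 libraries of most members lie close together. The highest library over the lowest is largest for Psmb9, 3.81-fold, and Psmb8, 3.42-fold.

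No member of the 47 passed the test in any comparison. In edgeR's quasi-likelihood test with Benjamini-Hochberg adjustment over 15893 genes, 0 of 47 members had an adjusted p under 0.05 in untrained against sham (0% of all genes) or in SBES against untrained (0%). The count was also 0 of 47 in SBES against sham, where 0.346% of all genes passed (55 genes, 43 higher and 12 lower in SBES). With the replicate number as a block, 132 genes passed in that last comparison, and again 0 members. The count of genes in that comparison was 0 without sham library 3 and 581 without the 3 replicate 1 libraries. DESeq2 called 14, 29 and 281 genes in the 3 comparisons and 0 members in each. At an unadjusted p under 0.05 in edgeR, the count of members was 0, 0 and 1, against 4.45%, 5.37% and 9.31% of all genes. The smallest adjusted p of a member was 1 in untrained against sham, 0.959 when SBES was set against untrained and 0.381 when set against sham.

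The intervals are those of the main fit and rest on the spread between these libraries, which may be technical. Each is for 1 member and is not adjusted for the number of genes. They depend on scaling: with total counts alone the SE of Psma5 in SBES against sham was 0.34, against 0.20 in the main fit. The 95% interval of the log2 fold change lay within 2-fold either way for 44 members when untrained was set against sham, and for 43 in each SBES comparison. The intervals of Psmb8, Psmb9 and Psme4 reached beyond 2-fold in all 3 comparisons. That of Psme2b did so where SBES was set against untrained, and that of Psmg2 where it was set against sham. The interval of Psmg2 was not wide (SE 0.21) but lay wholly below 0. The SE of a member's log2 fold change had a median of 0.22 and ran from 0.20 to 0.43.

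Fold changes were small, and in both SBES comparisons most lay below 0. The median log2 fold change over members was −0.01 in untrained against sham (all genes −0.01), −0.08 for SBES against untrained (all genes 0.02) and −0.11 for SBES against sham (all genes −0.00). With libraries scaled by total counts alone the median of all genes itself moved to 0.18 in untrained against sham and to −0.19 in SBES against untrained, and that of members to 0.17 and −0.28. In untrained against sham, 22 members lay above 0 and 25 below, against 50.9% of all genes below. In each SBES comparison 12 lay above 0 and 35 below, which is 74.5% below, against 48.3% of all genes where untrained was the control and 50.2% where sham was. Both SBES comparisons share the SBES libraries, so they are not separate evidence. Without SBES library 1 the median was −0.03 against untrained and −0.02 against sham. Against untrained it was −0.02 without the 3 replicate 1 libraries and −0.17 without untrained library 2. SBES library 1 had the lowest level of the 9 for 22 of 47 members (46.8%), against 16.5% of all genes. It also had the highest share of mitochondrial counts, whose part in the result was not tested.

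Counted by separation of the libraries, 7 members had all SBES libraries below all untrained ones, 14.9% of members against 4.77% of all genes, and 0 had them all above, against 5.66% of all genes. The 7 were Psma1, Psma2, Psmd6, Psmd10, Psme2, Psme2b and Psmg2. In SBES against sham 5 members lay wholly below (Psma5, Psmb5, Psmc2, Psmc5 and Psmg2), 10.6% against 6.73% of all genes, and 1 wholly above (Psma6), 2.13% against 7.1%. In untrained against sham 2 lay wholly above (Psma6 and Psme2), 4.26% against 4.63%, and 1 wholly below (Psmb5), 2.13% against 5.13%.

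**Figure D2:**
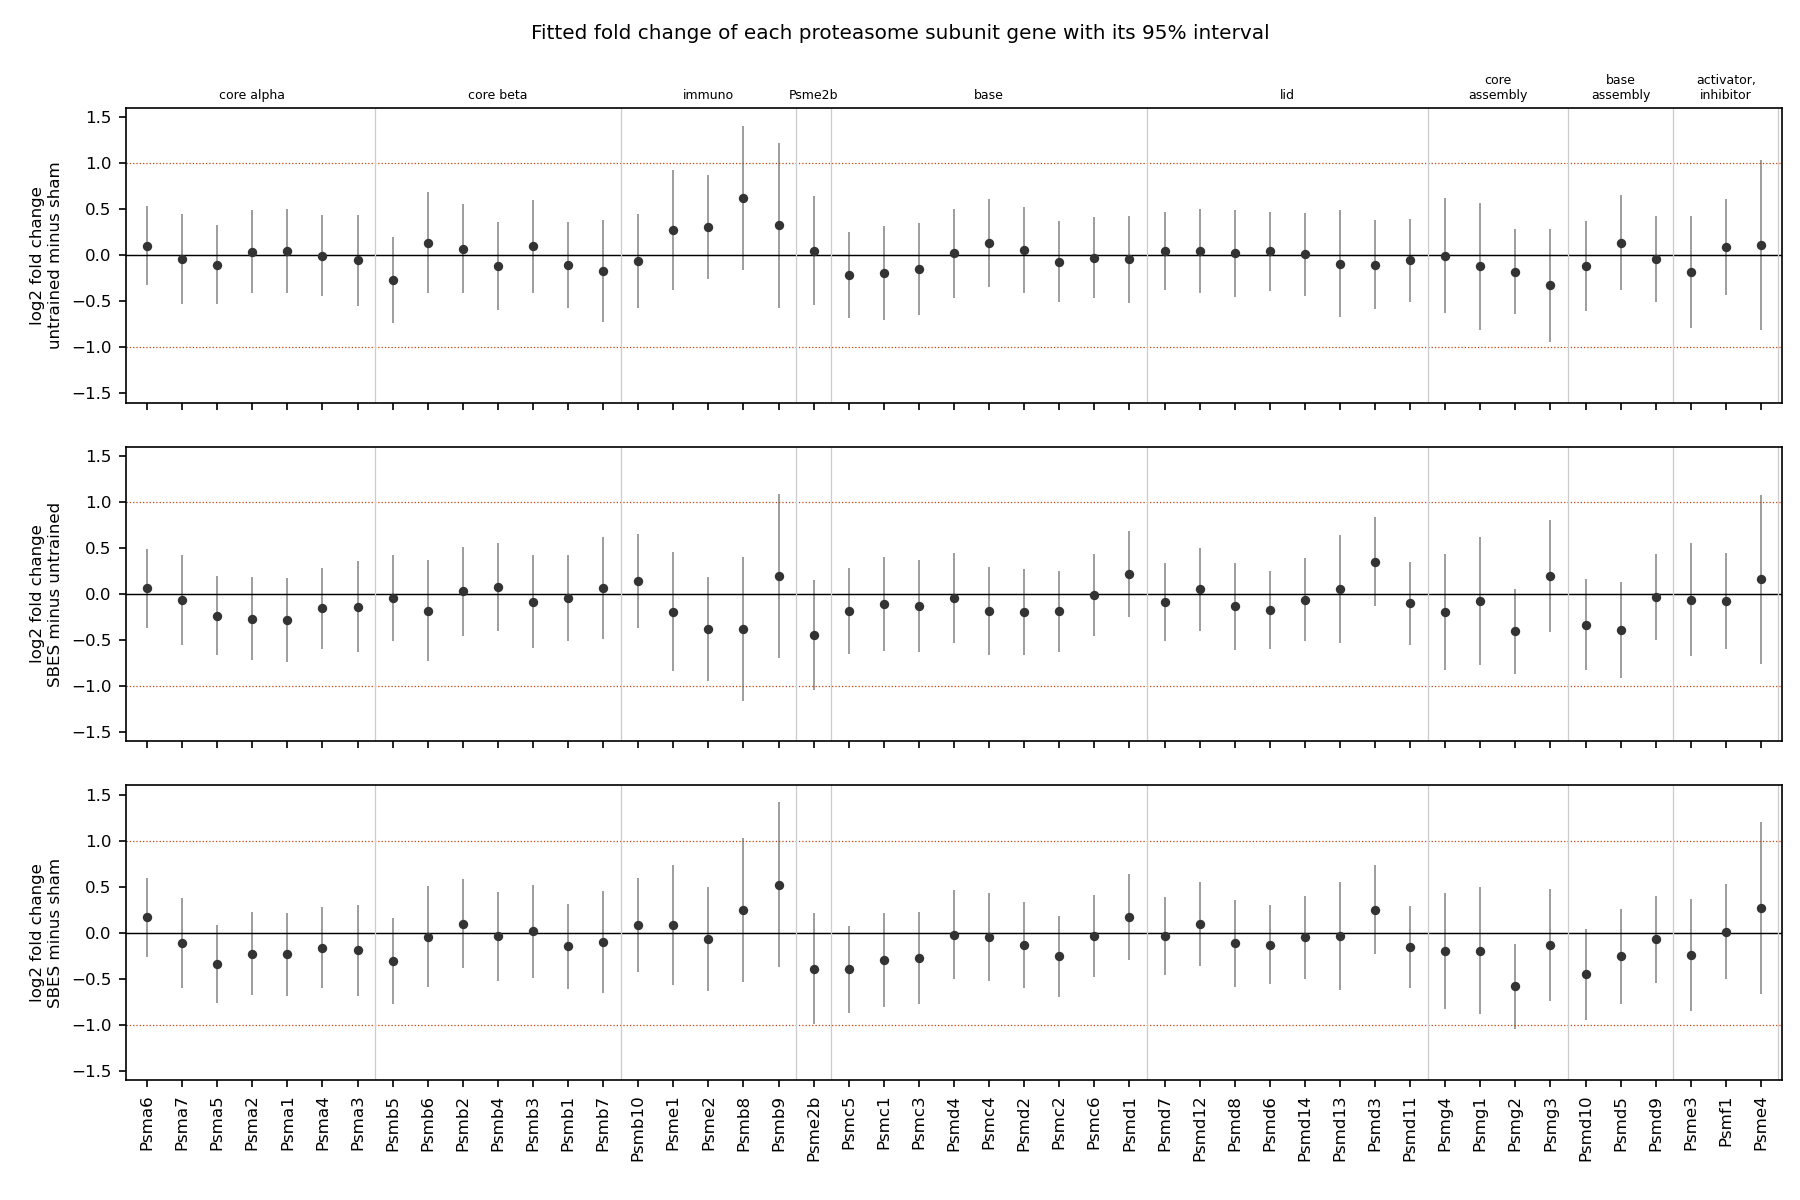
Log2 fold changes (points) with 95% intervals (lines) of the members tested, by role, in untrained minus sham, SBES minus untrained and SBES minus sham. All points lie between −0.58 and 0.62, and the intervals are widest for Psmb8, Psmb9 and Psme4.

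Among the alpha subunits, which form the outer rings and the gate, levels ran from 268 FPKM for Psma6 to 23.1 FPKM for Psma3, an 11.6-fold range. Psma6 stood at 263, 261 and 323 FPKM in SBES libraries 1, 2 and 3, at 285, 262 and 265 in untrained libraries 1, 2 and 3, and at 256, 247 and 252 in sham libraries 1, 2 and 3. Its SBES and untrained libraries were all above the sham ones, by small steps, and its log2 fold changes against sham were 0.17 and 0.11. Psma5 stood at 96.6, 109.6 and 122 FPKM in SBES libraries, at 118, 132 and 137 in untrained and at 131, 149 and 135 in sham. Every SBES library of Psma5 was below every sham library, and the log2 fold change of −0.34 (SE 0.20) had an adjusted p of 0.664 in edgeR. The deposited table holds 5 proteasome pseudogene symbols, Psma5-ps among them, with at most 472 counts in any library. The split of reads between such copies and members such as Psma5 is uncertain. Psma3 stood at 25.2, 17.6 and 21.3 FPKM in SBES, at 27.8, 22.6 and 20.2 in untrained and at 29.1, 23.2 and 21.0 in sham, with library 1 highest in each group.

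Among the beta subunits the 3 catalytic ones spanned the widest range of the class. Psmb5 was at a mean of 658 FPKM, and Psmb7, with the trypsin-like site, had the lowest FPKM of the beta subunits tested, 36.1. These levels are per exonic length, 899 bases for Psmb5 and 3421 for Psmb7. In counts the range was smaller, with 4068 against 816 in SBES library 1 and 12526 against 2720 in sham library 3. Psmb5 stood at 504, 656 and 652 FPKM in SBES libraries 1, 2 and 3, at 599, 576 and 690.3 in untrained and at 788, 699 and 759.6 in sham. All sham libraries were above all the others. Its log2 fold change was −0.27 (SE 0.22) in untrained against sham and −0.31 (SE 0.22) in SBES against sham, with adjusted p of 1 and 0.737 in edgeR, so the difference did not pass the test. A microRNA gene, Mir686, lies on the same strand within 12.1% of the exonic bases of Psmb5.

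Psmb6 stood at 461, 506 and 502 FPKM in SBES libraries, at 726, 405 and 533 in untrained and at 545, 463 and 506 in sham. Untrained library 1 was the highest and untrained library 2 the lowest of the 9, so the groups overlapped fully. Psmb7 stood at 26.6, 39.3 and 41.3 FPKM in SBES, at 25.2, 37.7 and 39.7 in untrained and at 31.3, 40.4 and 43.3 in sham. Library 1 was the lowest in each group, and groups overlapped. Psmb7 shares 11.8% of its exonic bases with Nek6, and the strand setting of the counting is not given in the sources used here, so shared reads cannot be told apart. The other beta subunits lay between these, and all 7 tested ones had log2 fold changes between −0.31 and 0.14 over the 3 comparisons.

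In the base of the regulatory particle, Psmc5, an ATPase, was at 658 FPKM, level with Psmb5 as the members of highest FPKM. The scaffold subunit Psmd1 was lowest at 18.9 FPKM, 34.8-fold less per exonic length, which was 1394 bases for Psmc5 and 7265 for Psmd1. Psmc5 stood at 514, 615 and 583 FPKM in SBES libraries 1, 2 and 3, at 657, 604 and 689 in untrained and at 668, 792 and 796 in sham. Every SBES library was below every sham library. The means were 571 ± 51.4 FPKM in SBES and 752 ± 72.8 FPKM in sham (SD, n = 3 each), and the log2 fold change of −0.40 (SE 0.22) had an adjusted p of 0.632 in edgeR. Psmd1 stood at 26.4, 17.6 and 18.0 FPKM in SBES, at 17.8, 16.9 and 18.6 in untrained and at 18.5, 19.3 and 17.2 in sham. Apart from SBES library 1 its levels were nearly level. Of the 9 base subunits, 8 lay below 0 in each SBES comparison, with class medians of −0.13 and −0.14.

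The lid was the steadiest class, with a median coefficient of variation of 11.4% over its 8 subunits. Its highest member, Psmd7, was also the least variable of all members tested at 7.63%. Psmd7 stood at 95.8, 95.1 and 91.6 FPKM in SBES, at 114, 89.7 and 96.1 in untrained and at 90.2, 98.2 and 101 in sham, with no order among the groups. Psmd11 was the lowest lid subunit at 12.4 FPKM. Psmd3 had the largest positive log2 fold change of all members in SBES against untrained, 0.35 (SE 0.22, adjusted p 0.991 in edgeR). It stood at 26.6, 31.1 and 28.2 FPKM in SBES libraries, at 18.2, 21.2 and 27.9 in untrained and at 20.1, 24.7 and 27.4 in sham. The groups overlapped through untrained library 3. Psmd14, the deubiquitinase of the lid, stood between 37.0 and 42.5 FPKM in SBES, between 40.0 and 41.9 in untrained and between 31.4 and 45.6 in sham.

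The assembly chaperones held the member nearest to the threshold. Psmg2, which pairs with Psmg1 to build the alpha ring, stood at 13.1, 17.8 and 14.6 FPKM in SBES libraries 1, 2 and 3, at 17.9, 21.7 and 20.7 in untrained and at 19.7, 25.2 and 23.1 in sham. Every SBES library was below every untrained and every sham library, though SBES library 2 and untrained library 1 were nearly equal. The means were 15.1 ± 2.39 FPKM in SBES, 20.1 ± 1.96 in untrained and 22.7 ± 2.80 in sham (SD, n = 3 each). The log2 fold change was −0.58 in SBES against sham, with a 95% interval of −1.05 to −0.12, an unadjusted p of 0.0179 and an adjusted p of 0.381 in edgeR. In SBES against untrained it was −0.41 (SE 0.21, adjusted p 0.959 in edgeR).

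The other core chaperones gave no separation of groups. Psmg4 was the most abundant at 54.0 FPKM and Psmg3 the least at 13.2 FPKM. Psmg3 stood at 7.97, 16.0 and 15.9 FPKM in SBES, at 10.3, 12.2 and 12.4 in untrained and at 11.9, 14.0 and 18.0 in sham, where library 1 was lowest in every group. Psmg1 stood at 9.78, 22.4 and 22.7 FPKM in SBES, at 16.0, 22.3 and 19.7 in untrained and at 15.2, 23.3 and 24.3 in sham, again with library 1 lowest in every group. All 4 core chaperones lay below 0 in SBES against sham, with a median of −0.20.

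Of the base chaperones, Psmd10, known also as the oncoprotein gankyrin, was highest at 41.1 FPKM and Psmd9 lowest at 7.49 FPKM. Psmd10 stood at 26.2, 36.6 and 39.1 FPKM in SBES, at 47.2, 40.3 and 41.1 in untrained and at 37.2, 52.2 and 49.8 in sham. All SBES libraries were below all untrained ones, while sham library 1 lay among the SBES values. Its log2 fold change was −0.45 (SE 0.23, adjusted p 0.586 in edgeR) in SBES against sham and −0.33 (SE 0.23) in SBES against untrained. Psmd5 stood at 6.24, 7.72 and 6.24 FPKM in SBES, at 9.53, 7.70 and 9.29 in untrained and at 5.64, 9.32 and 9.18 in sham, and its log2 fold change of −0.39 (SE 0.24) in SBES against untrained had an adjusted p of 0.991 in edgeR. All 3 base chaperones lay below 0 in both SBES comparisons.

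Among the alternative caps, Psme3, an activator of the nucleus, averaged 23.8 FPKM and Psme4, another activator, 0.492 FPKM, the lowest level of any member tested. Psmf1, an inhibitor of the core, lay between them, from 7.68 to 12.5 FPKM over the 9 libraries. Psme4 also had the highest coefficient of variation, 38.0%. Log2 fold changes of the 3 genes lay between −0.24 and 0.27 over all comparisons.

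**Figure D3:**
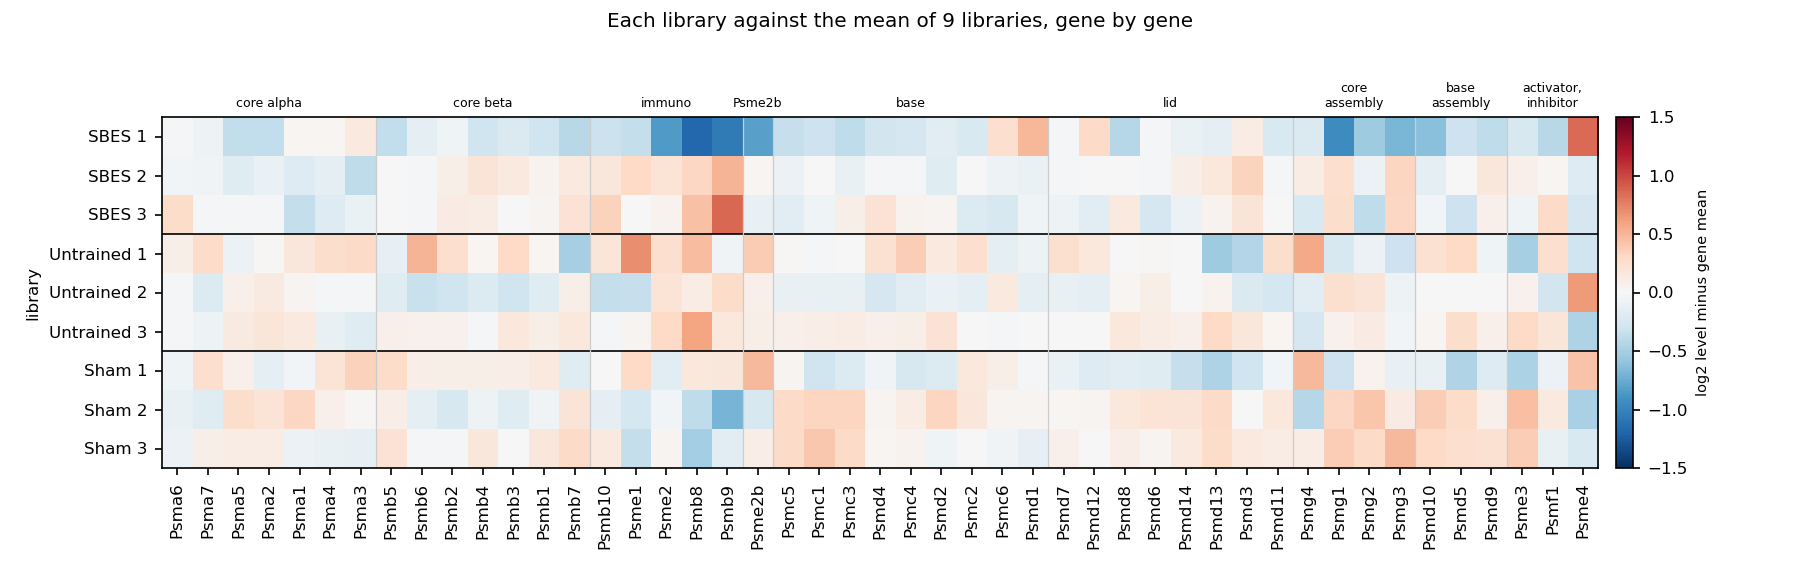
Level of each member tested in each of the 9 libraries as log2 of its TMM-scaled FPKM minus the member's mean log2 level over the libraries, with members grouped by role. SBES library 1 holds the lowest value of 22 of the 47 members, and the immunoproteasome is the class with the highest median coefficient of variation, 27.6%.

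Levels also differed by library number. On the log2 scale, replicate 1 was below the mean of replicates 2 and 3 of its group, in each of the 3 groups, for 14 of 47 members (29.8%, against 21.2% of all genes). These were Psma2, Psma5, Psmb7, Psmc1, Psmd3, Psmd8, Psmd9, Psmd13, Psmd14, Psme2, Psme3, Psmg1, Psmg2 and Psmg3. It was above that mean in every group for 3 members, Psma3, Psma4 and Psmd1 (6.38%, against 22.5% of all genes). The summed level of the 33 constitutive core and regulatory subunits was 4099, 4731 and 4763 FPKM in SBES, 5175, 4260 and 4969 in untrained and 4902, 4938 and 5154 in sham, so the highest sum over the lowest was 1.26-fold.

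The immunoproteasome genes were detected in all libraries and ran from 73.9 FPKM for Psmb10, above many constitutive subunits, to 2.05 FPKM for Psmb9. In untrained against sham 4 of the 5 lay above 0, with a median log2 fold change of 0.31, but none passed the test. In SBES against untrained 2 of 5 lay above 0 (median −0.19, and 0.27 without the 3 replicate 1 libraries), and in SBES against sham 4 of 5 (median 0.08). That last median was −0.02 without SBES library 3 and 0.47 without the 3 replicate 1 libraries. Their summed level was 91.3, 145 and 149.8 FPKM in SBES, 156, 107 and 133 in untrained and 129.8, 111 and 125 in sham, most of it from Psmb10.

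Psmb8 stood at 4.05, 11.4 and 12.4 FPKM in SBES libraries 1, 2 and 3, at 12.6, 9.86 and 13.8 in untrained and at 10.2, 7.04 and 6.42 in sham. SBES libraries 2 and 3 and all but 1 untrained library were above every sham library, while SBES library 1 was the lowest of the 9. The means were 12.1 ± 2.04 FPKM in untrained and 7.88 ± 2.02 FPKM in sham (SD, n = 3 each), and the log2 fold change of 0.62 (95% interval −0.16 to 1.40) had an unadjusted p of 0.109 and an adjusted p of 1 in edgeR. In SBES against sham it was 0.24 (SE 0.36). Without the 3 replicate 1 libraries the SBES against sham value was 0.83 with an adjusted p of 0.0651 in edgeR, from 2 libraries per group.

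Psmb9, which replaces Psmb6, was the lowest immunoproteasome gene at 2.05 FPKM. It stood at 0.913, 2.73 and 3.48 FPKM in SBES, at 1.84, 2.31 and 2.13 in untrained and at 2.14, 1.18 and 1.71 in sham. SBES held both the lowest and the highest library of the 9. The log2 fold change was 0.52 (SE 0.41, adjusted p 0.776 in edgeR) in SBES against sham, and without the 3 replicate 1 libraries it was 1.11 with an adjusted p of 0.056. Reads can be shared with neighbours: Psmb8 overlaps Gm20496 over 14.7% of its exonic bases and Psmb9 overlaps Tap1 over 5.79%.

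Psmb10, which replaces Psmb7, was the highest at 73.9 FPKM. It stood at 58.4, 82.4 and 92.6 FPKM in SBES, at 82.7, 57.0 and 71.4 in untrained and at 73.3, 66.6 and 80.6 in sham, and the groups overlapped. Its log2 fold changes were −0.06 in untrained against sham, 0.15 when SBES was set against untrained and 0.08 when set against sham. The sign of the first and second turns under other scaling of the libraries, to 0.12 and −0.01 with total counts.

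The activator genes Psme1 and Psme2 were alike in level but not in pattern. Psme1 stood at 18.7, 29.4 and 24.0 FPKM in SBES, at 38.8, 18.9 and 24.6 in untrained and at 29.4, 20.0 and 18.7 in sham, with full overlap. Psme2 stood at 9.22, 19.2 and 17.3 FPKM in SBES, at 19.8, 19.2 and 20.5 in untrained and at 14.8, 16.2 and 17.2 in sham. All untrained libraries of Psme2 were above all sham ones, and its log2 fold change of 0.31 (SE 0.26) had an adjusted p of 1 in edgeR. In SBES against untrained it was −0.38 (SE 0.26, adjusted p 0.993 in edgeR). Psme2b, at 12.4, 22.3 and 20.2 FPKM in SBES, 28.5, 23.1 and 23.3 in untrained and 30.6, 18.5 and 23.3 in sham, had a log2 fold change of −0.44 (SE 0.27) in SBES against untrained, with an adjusted p of 0.991. Psme2 and Psme2b are near-identical copies, so the split of reads between them is uncertain.

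Set against the subunits they replace, Psmb8 and Psmb9 were at low percentages in FPKM. The level of Psmb8 was 0.804%, 1.73% and 1.91% of that of Psmb5 in SBES libraries 1, 2 and 3, 2.10%, 1.71% and 2.01% in untrained and 1.29%, 1.01% and 0.845% in sham. This ratio does not depend on the scaling of libraries, and every untrained library was above every sham library. With 3 libraries against 3 an exact permutation test cannot go below a two-sided p of 0.1, so the ratio is given as a description. Psmb9 was at 0.198%, 0.540% and 0.694% of Psmb6 in SBES, 0.254%, 0.571% and 0.399% in untrained and 0.393%, 0.255% and 0.339% in sham, with full overlap. The size of these percentages rests on exonic lengths, 3381 bases for Psmb8 against 899 for Psmb5, and 3660 for Psmb9 against 1872 for Psmb6. In counts, which are not divided by length, Psmb8 had 123 against 4068 for Psmb5 in SBES library 1. In untrained library 1 it had 644 against 8151.

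Psmb10 was above Psmb7 in every library, at 219.6%, 209.5% and 224% in SBES, 329%, 151% and 179.8% in untrained and 234%, 165% and 186% in sham. Both values are per exonic length, which the table gives as 1705 bases for Psmb10 and 3421 for Psmb7, so the percentages rest on those lengths. In counts Psmb10 was also above Psmb7 in the SBES libraries, untrained library 1 and sham library 1. In untrained and sham libraries 2 and 3 it had fewer counts than Psmb7, so the order there rests on the lengths.

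Markers of immune cells also varied between libraries. The 10 microglia genes, all detected in every library, summed to 846, 1832 and 2757 FPKM in SBES, 1247, 1224 and 1328 in untrained and 1494, 641 and 580 in sham. Sham libraries 2 and 3, lowest for Psmb8 after SBES library 1, were also the lowest for microglia genes. Other libraries did not keep this order. SBES library 1, the lowest for Psmb8, was above both for microglia genes. SBES library 3, the highest for microglia genes, was below untrained library 3 for Psmb8. The 11 leukocyte genes summed to 191, 286 and 283 FPKM in SBES, 996, 342 and 197 in untrained and 2309.8, 75.0 and 51.3 in sham, and 3 of them were at 0 in some library. In sham library 1 most of that sum came from S100a8 (1454 FPKM) and S100a9 (787 FPKM). The part of these cells in the levels of Psmb8, Psmb9 and Psme2 was not tested.

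**Figure D4:**
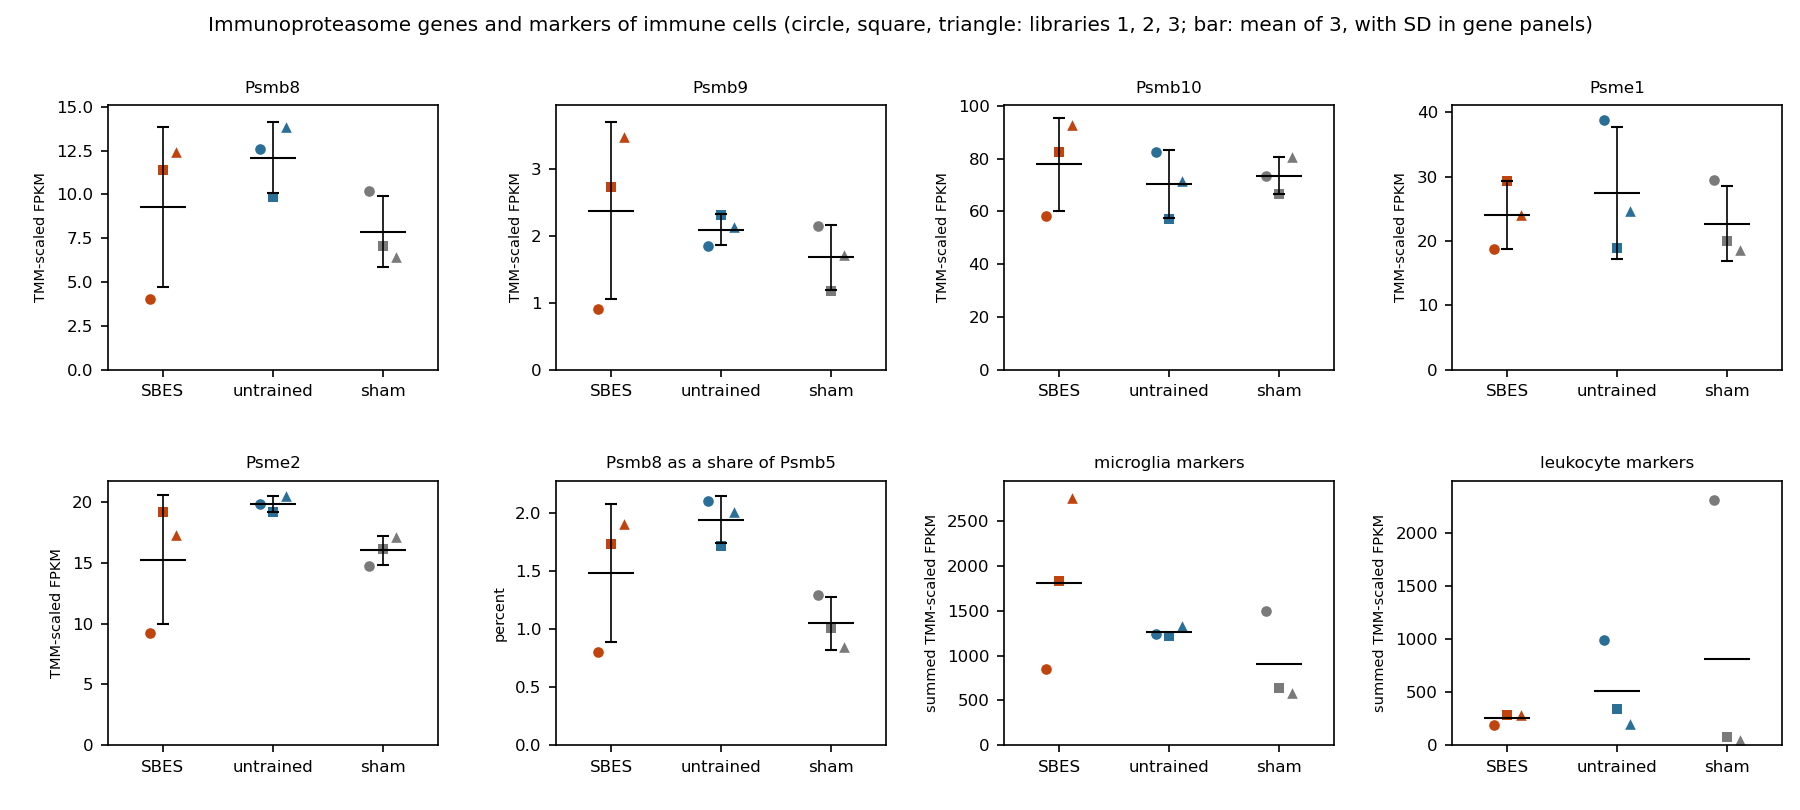
Levels of the immunoproteasome genes and summed microglia and leukocyte markers (TMM-scaled FPKM), and Psmb8 as a percentage of Psmb5, with 1 point per library and a bar at the group mean (with SD except for the marker sums, n = 3), in SBES, untrained and sham. All untrained libraries of Psme2 and of the Psmb8 percentage lie above all sham ones, while SBES library 1 is the lowest point for Psmb8, Psmb9 and Psme2.

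Genes that feed or control the proteasome gave no call either: 0 of the 6 ubiquitin and activation genes, of 14 assembly and associated factors, of 9 shuttles and unfoldase subunits, of 7 transcriptional regulators and of 14 tested peptide-loading and interferon genes passed in any comparison. Nfe2l1, the regulator of subunit transcription, averaged 9.45 FPKM in SBES, 9.15 in untrained and 11.0 in sham. Nfe2l2, its relative that responds to oxidative stress, stood at 8.89, 7.93 and 12.8 FPKM in SBES, at 6.32, 6.88 and 6.77 in untrained and at 6.74, 5.23 and 3.92 in sham. All SBES libraries of Nfe2l2 were above all others. Its log2 fold change was 0.90 (SE 0.26) in SBES against sham with an unadjusted p of 0.00442 and an adjusted p of 0.21 in edgeR, and 0.57 (SE 0.26, adjusted p 0.918) in SBES against untrained.

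Pomp, the maturation factor of the core, averaged 77.3 FPKM in SBES, 81.2 in untrained and 84.2 in sham. The lid subunit Sem1, whose symbol falls outside the Psm family, averaged 32.9 ± 1.32 FPKM in untrained and 43.6 ± 8.68 in sham (SD, n = 3 each), with untrained libraries all below sham and an adjusted p of 1 in edgeR. The ubiquitin gene Ubb followed library number: it stood at 6214, 2348 and 2121 FPKM in SBES, at 5561, 2383 and 3099 in untrained and at 6836, 2878 and 2469 in sham.

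Rad23b, which carries ubiquitinated proteins to the proteasome, stood at 7.91, 7.45 and 7.67 FPKM in SBES, at 3.94, 5.51 and 4.03 in untrained and at 9.41, 4.86 and 7.54 in sham. The SBES libraries were all above the untrained ones, with a log2 fold change of 0.77 (SE 0.26, unadjusted p 0.0114, adjusted p 0.867 in edgeR). In untrained against sham the value was −0.69 (SE 0.26, adjusted p 1), and the groups overlapped. Nploc4, a cofactor of the unfoldase, gave 0.72 (SE 0.35, adjusted p 0.569 in edgeR) in SBES against sham, and Ecpas, a proteasome adaptor, gave 0.44 (SE 0.32, adjusted p 0.746).

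Of the 14 peptide-loading and interferon genes tested, 1 lay below 0 in untrained against sham, with a median of 0.26, against 50.9% of all genes below 0. In SBES against untrained 10 lay below 0 (median −0.12), against 48.3% of all genes, and in SBES against sham 5 (median 0.18), against 50.2%. Ifngr1, a chain of the interferon gamma receptor, stood at 11.3, 16.8 and 20.5 FPKM in SBES, at 15.8, 11.9 and 12.6 in untrained and at 8.99, 8.16 and 7.77 in sham. Every SBES and untrained library was above every sham library. Its log2 fold change was 0.96 (SE 0.25, adjusted p 0.155 in edgeR) in SBES against sham and 0.69 (SE 0.25, adjusted p 1) in untrained against sham. B2m, the light chain of MHC class I, averaged 622 FPKM in SBES, 767 in untrained and 676 in sham, with sham library 1 the highest at 1083.5 FPKM. Tap1, a peptide transporter and the neighbour of Psmb9, averaged 0.70, 0.64 and 0.52 FPKM. Irf9, a transcription factor of interferon signalling, gave −0.51 (SE 0.35, adjusted p 0.993 in edgeR) in SBES against untrained.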

How the data were processed

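Smart-seq2 libraries of aspirated motoneurons were given as 1 table of 55401 genes. Per the labels' protocols, Hisat2 2.0.1 was the authors' aligner, HTSeq 0.6.1 their counter and DESeq2 their test. The submitters' processing notes name mm10, and no annotation release is given in the sources used here. Deposited by the authors were whole-number counts and FPKM, and recomputing FPKM from counts, totals and exonic length matched 100% of the values within 0.006. Columns were matched to libraries by name where names allowed. The 3 untrained columns and that of SBES at 10 Hz have names that fit no title and were assigned by elimination, on which all values of these libraries depend.

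Counts were tested with edgeR 4.0.16 (R 4.3.3), with filterByExpr, TMM scaling and all 9 libraries in 1 quasi-likelihood fit, a coefficient per group and no covariates. Benjamini-Hochberg adjustment covered 15893 genes, with a threshold of 0.05. Alternatives used limma 3.58.1 on log2(FPKM + 1) and log2(FPKM + 0.1), DESeq2 1.42.0, other scalings, no filter and left-out libraries. PCR copies cannot be told from molecules in these counts. Fits were tested on simulated data.

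Members and gene lists were chosen with earlier results of these data known. Named with values were the immunoproteasome genes, the constitutive catalytic subunits, the highest and lowest member of each class, the 4 members of smallest p per comparison, and, in each list of related genes, 1 gene of smallest p. Some genes that this rule names are not reported here. Psmg1, Psmf1, Psmd14 and those whose libraries separated were added after their values were seen.

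Same-numbered libraries deviated together over all genes tested with correlations of 0.27, 0.16 and 0.14 in SBES against sham. Unlike-numbered ones ran from −0.25 (SBES library 1 with sham library 2) to 0.17 (SBES library 3 with sham library 2). That highest value is above those of the pairs numbered 2 and 3, so a pairing by number is not settled there. The main fit held no block. All 49 members have the same coordinates and exonic length in the GENCODE annotation of GRCm38, from which overlaps with other genes were taken. No pair of columns was identical.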

Additional observations from a re-analysis of the deposited data

How the results depend on the processing

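The count of members called was 0 in each comparison under every alternative run. Named members gave 200 values under other settings, of which 192 kept their direction and 8 turned, and 250 with libraries left out, of which 238 kept it and 12 turned. The smallest adjusted p among them was 0.056, of Psmb9 in SBES against sham without the 3 replicate 1 libraries. Psmb10 turned to −0.015 with total counts, −0.082 and −0.084 with limma (pseudocounts 1 and 0.1) in SBES against untrained, and to 0.12, 0.13 and 0.14 in untrained against sham. Psmb9 turned to −0.077 and −0.21 with limma in SBES against untrained.

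With libraries left out, log2 fold changes in SBES against sham ran from −0.061 to 0.28 for Psmb10, −0.020 to 0.83 for Psmb8, −0.085 to 0.47 for Psme1 and −0.27 to 0.21 for Psme2. In SBES against untrained they ran from −0.18 to 0.57 for Psmb9 and −0.40 to 0.27 for Psme1. In untrained against sham they ran from −0.17 to 0.067 for Psmb10 and −0.023 to 0.535 for Psme1. The median of the immunoproteasome genes ran from −0.40 to 0.27 in SBES against untrained from −0.020 to 0.47 in SBES against sham, and from 0.19 to 0.535 in untrained against sham, where it was 0.50 with total counts and 0.43 and 0.52 with limma. The median of all members with limma was −0.29 and −0.31 in SBES against untrained and 0.18 and 0.20 in untrained against sham, against −0.28 and 0.17 with total counts.

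Over all genes, SBES against sham gave 517 calls with no filter, 281 with DESeq2, 21 and 30 with limma and 132 with the replicate block, and 0 (without sham library 3) to 581 (without the replicate 1 libraries) with libraries left out. SBES against untrained gave 186 with no filter, 29 with DESeq2 and 0 to 13 with libraries left out. Untrained against sham gave 134 with no filter, 14 with DESeq2, 1 with total counts, 1 with limma at a pseudocount of 0.1, 4 with the replicate block and 0 to 47 with libraries left out. The replicate block changed no call of a member. The same-numbered libraries did not all deviate together in untrained against sham (correlations 0.39, 0.00 and 0.22). Nor did they in SBES against untrained (0.24, −0.17 and 0.26). The block rests on a library number alone in every comparison. The cause of these differences was not tested. With 3 libraries per group, most genes changed 2-fold in simulated data were not called, so a 2-fold change of a member may be missed. Those genes were drawn from all genes tested, whose median coefficient of variation was 28.9%, against 14.1% over members. How often such a change of a member would be missed was therefore not measured.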
